A study of Mus musculus with 6 samples.

Results

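Genes of IL-6, IL-1 and STAT3 signalling, 10 in number, were followed in mouse liver: the IL-6 receptor chains Il6ra and Il6st, the transcription factor gene Stat3, its feedback inhibitor Socs3, the IL-1 receptor chains Il1r1 and Il1rap, the IL-1 receptor antagonist Il1rn, the lipopolysaccharide-binding genes Lbp and Cd14, and the metalloreductase gene Steap4. They were chosen by symbol, and all 10 were found among the 22173 gene symbols with deposited values and were among the 10681 genes tested. The title presents DDK as a limonoid and sets the work in metabolic dysfunction-associated steatohepatitis. Livers came from 3 wild-type Mus musculus given DDK and from 3 wild-type mice given vehicle. Mice of both groups were 6 weeks old when an HFHC diet of 16 weeks began, and DDK or vehicle was given in the last 4 weeks, so every mouse carried the diet. The labels name the compound and the diet by these abbreviations only, and livers on another diet were not analysed here. The sources used here do not give sex, strain, dose or batch.

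IL-6 reaches the hepatocyte through the ligand-binding chain IL-6R alpha (Il6ra) and the shared signalling chain gp130 (Il6st), which activate JAK kinases and then STAT3. STAT3 drives acute phase genes and Socs3, whose product binds gp130 and JAK and shuts the signal off. IL-1 acts through the receptor IL1R1 and its accessory protein IL1RAP towards NF-kB, and the secreted antagonist encoded by Il1rn occupies IL1R1 without signalling. LBP and CD14 hand bacterial lipopolysaccharide to the receptor TLR4 with its partner MD-2 (Ly96).

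DDK livers had lower transcript levels of both IL-6 receptor chains, of the IL-1 antagonist, of Lbp and of Steap4, while neither IL-1 receptor chain nor Socs3 passed the test. Steap4 averaged an FPKM (fragments per unit of gene length and of library size) of 7.05 ± 1.93 in DDK livers and 43.5 ± 9.80 in vehicle livers (SD, n = 3 each). Il6ra averaged 0.562 ± 0.0757 in DDK livers and 2.92 ± 1.36 in vehicle livers (SD, n = 3 each). Of the 10 genes, 6 fell and 0 rose by limma with an adjusted p under 0.05. Over all genes tested, 30.3% fell and 10.2% rose by the same rule, and 40.5% passed in either direction. In FPKM the groups did not overlap for 8 of the 10 genes, each with DDK lower, against 53.3% of all genes in either direction and 39.2% with DDK lower. The median log2 fold change of the 10 was -0.67, beside -0.23 over all genes tested. Fold changes are DDK over vehicle, as differences of log2(FPKM + 1), and are compressed for genes with low values.

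**Figure D1:**
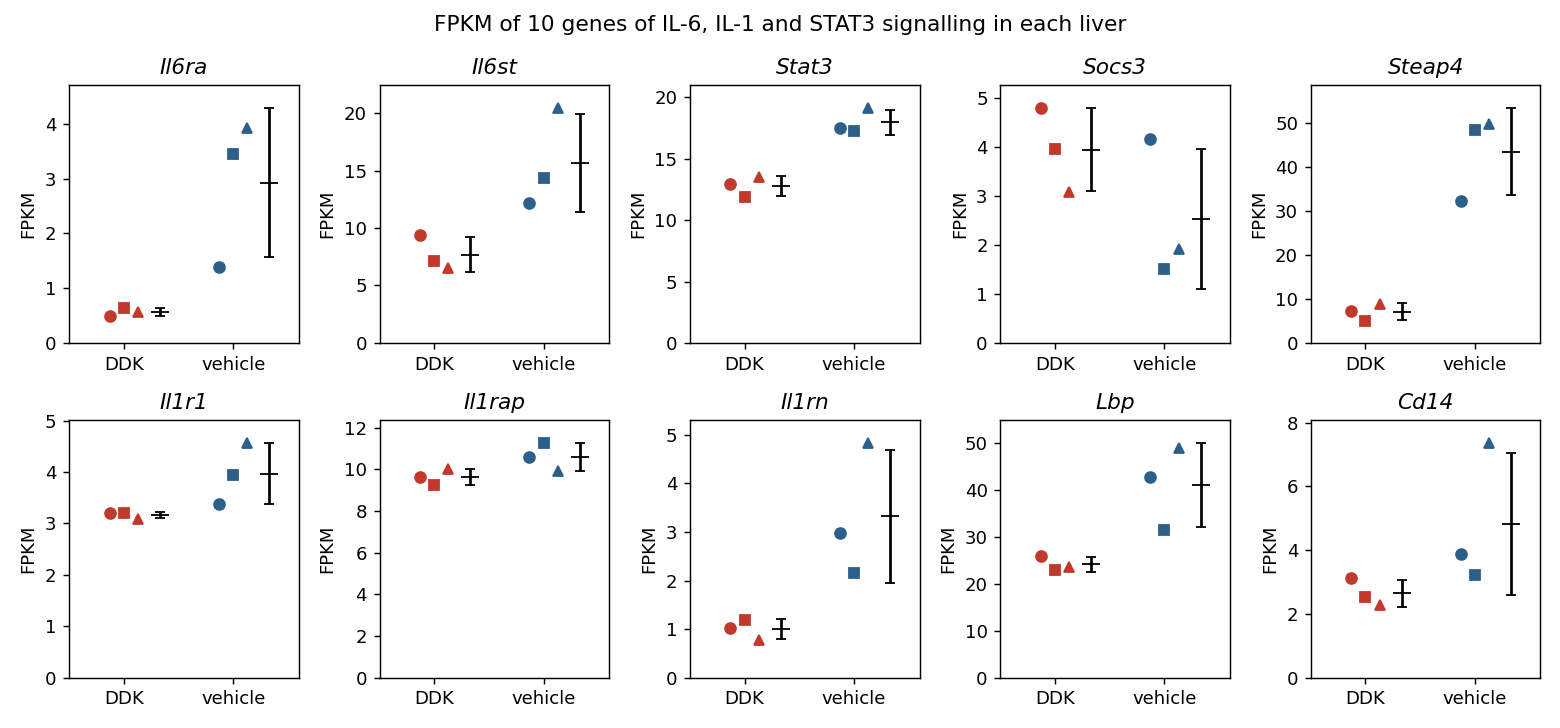
FPKM (y axis, linear, from 0) of the 10 genes in each liver, DDK at left and vehicle at right, with circle, square and triangle for replicates 1, 2 and 3 and a bar for mean ± SD. The 3 DDK livers lie below the 3 vehicle livers in 8 panels, and the groups overlap for Socs3 and Il1rap.

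Depth and scale bear on these values as follows. The libraries held 26576291 to 30237490 fragments in DDK and 33963898 to 36105315 in vehicle, as recovered from the FPKM values, and the thinnest member, Il6ra in DDK livers, had 47 to 58 fragments per library. The all-gene median log2 fold change was -0.23 as deposited. It was 0.00 with median-ratio factors, 0.00 with quantiles equalized, -0.01 with a gene length correction and -0.45 as TPM. With median-ratio factors 4 of the 10 genes fell and 0 rose, where 15.4% of all genes fell and 18.4% rose. With quantiles equalized 5 fell and 0 rose, where 16.3% of all genes fell and 17.7% rose. With the length correction 5 fell and 0 rose, where 17.3% of all genes fell and 16.1% rose. As TPM 7 fell and 0 rose, where 46.1% of all genes fell and 5.91% rose. Vehicle replicate 1 lay nearest to the DDK livers on the first principal component, at a score of 14.1, where DDK livers lay at -36.35 to -23.6 and the other vehicle livers at 36.2 and 40.01. The labelled tissue was borne out by hepatocyte markers: Alb, the albumin gene, stood at 33702 to 37838 in DDK livers and 17336 to 21423 in vehicle livers. In whole liver, fewer cells of a type and less RNA per cell cannot be told apart.

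To show the sequence before annotated start sites, stretches are given for Steap4 and Socs3, which had the lowest and the highest fold change of the 10 genes, and for Il6ra and Il6st, the receptor chains. Sequences come from RefSeq on GRCm38.p6, where 8 of the 10 genes were matched. They run 5′ to 3′ on the strand of the gene from 250 bases before the RefSeq start, and are trimmed to hold no exon base of the gene in GENCODE M21. The Socs3 stretch lies before the RefSeq start but inside the longer GENCODE span of the gene, and the other 3 lie outside their genes' spans. Capitals mark matches on either strand to TTCNNNGAA (the STAT site), to TTGCNNAA (a C/EBP-type site) or to an NF-kB-type site, read as GGG and TTCC with 3 free bases between them. None of these overlap each other here.
Steap4, chr5:7960222-7960456, plus strand: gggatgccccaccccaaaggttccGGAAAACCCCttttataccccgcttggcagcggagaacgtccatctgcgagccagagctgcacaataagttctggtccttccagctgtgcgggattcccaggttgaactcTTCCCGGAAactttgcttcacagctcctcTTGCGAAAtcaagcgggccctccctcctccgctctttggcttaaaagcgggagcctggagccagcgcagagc
Socs3, chr11:117969452-117969616, minus strand: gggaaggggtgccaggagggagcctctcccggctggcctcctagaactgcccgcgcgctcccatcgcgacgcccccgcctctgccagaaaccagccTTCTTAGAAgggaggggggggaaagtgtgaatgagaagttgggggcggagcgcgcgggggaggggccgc
Il6ra, chr3:89913197-89913446, minus strand: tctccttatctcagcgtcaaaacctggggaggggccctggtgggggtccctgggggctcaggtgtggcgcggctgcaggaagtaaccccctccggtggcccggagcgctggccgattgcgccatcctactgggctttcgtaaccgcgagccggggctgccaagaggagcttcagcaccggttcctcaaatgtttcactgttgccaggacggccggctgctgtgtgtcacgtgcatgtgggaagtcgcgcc
Il6st, chr13:112463820-112464069, plus strand: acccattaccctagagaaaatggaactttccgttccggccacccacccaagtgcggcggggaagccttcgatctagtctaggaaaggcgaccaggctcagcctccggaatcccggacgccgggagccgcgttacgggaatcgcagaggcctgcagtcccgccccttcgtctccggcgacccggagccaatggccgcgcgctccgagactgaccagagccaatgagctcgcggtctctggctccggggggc
In Steap4 the letters TTCCCGGAA begin 116 bases before the start and match the STAT pattern, TTGCGAAA begins at 87 bases and matches the C/EBP pattern, and GGAAAACCCC begins at 226 bases and matches the NF-kB pattern on the other strand. In Socs3 the letters TTCTTAGAA begin 154 bases before the start and match the STAT pattern. The stretches of Il6ra and Il6st hold none of the 3 patterns. Among 32851 promoters of the same table, 7.02% hold the STAT pattern within 250 bases before the start, 9.56% the C/EBP pattern and 4.65% the NF-kB pattern. Steap4 was lower and Socs3 was not lower in DDK livers, and both carry a STAT pattern. A match describes letters only, and binding was not measured.

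Of the IL-6 receptor chains, Il6ra (ENSMUSG00000027947.11, chromosome 3, 89864059 to 89913196 on GRCm38, minus strand) stood at FPKM values of 0.484, 0.635 and 0.568 in DDK livers 1 to 3, against 1.38, 3.46 and 3.93 in vehicle livers 1 to 3. All DDK livers were low and close together, and vehicle replicate 1 was the lowest vehicle liver without reaching them. Il6ra fell by 1.26 ± 0.24 on the log2 scale (SE, limma adjusted p = 0.00424), and 2.46% of tested genes had a lower fold change. In linear FPKM the vehicle mean was 5.20 times the DDK mean. Il6st (ENSMUSG00000021756.12, chromosome 13, 112464070 to 112510086, plus strand), which most IL-6 family cytokines share, stood at 9.38, 7.15 and 6.54 in DDK livers, against 12.2, 14.3 and 20.4 in vehicle livers. The groups did not overlap, and the spread was wider among vehicle livers. Il6st fell by 0.92 ± 0.20 (adjusted p = 0.0068). Both calls held under each of the 16 alternatives run, with adjusted p up to 0.0315 for Il6ra and 0.0338 for Il6st. An antisense gene, Gm42809, shares 242 exon bases with Il6ra, and the library kit does not mark strand.

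Because both chains are read in one library, a single scaling factor per library cancels from their ratio, while quantile and gene length corrections do not, and the ratio was not computed under those. Il6ra stood at 0.0516, 0.0889 and 0.0869 of Il6st FPKM in DDK livers, against 0.113, 0.241 and 0.193 in vehicle livers. Each DDK liver thus had a lower ratio than each vehicle liver. The mean log2 ratio was -3.76 ± 0.44 in DDK livers and -2.52 ± 0.56 in vehicle livers (SD, n = 3 each), a difference of -1.24 by an exact two-sided permutation test with p = 0.1, the smallest that 3 against 3 allows. Adjusted over the 5 ratios computed, p was 0.25. With a pseudocount of 1 added to both genes the difference was -0.34.

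Other receptor chains of the IL-6 family gave mixed values. Il11ra1, the IL-11 receptor chain, rose by 0.62 ± 0.14 (adjusted p = 0.0084), with an FPKM of 20.8 ± 3.26 in DDK livers and 13.1 ± 0.636 in vehicle livers (SD, n = 3 each). Lifr, the LIF receptor, stood at 10.1 ± 1.38 in DDK livers and 8.27 ± 0.654 in vehicle livers (log2 fold change 0.25, adjusted p = 0.173), and it passed as higher under 3 of the 16 alternatives. Osmr, the oncostatin M receptor, stood at 0.383 ± 0.0683 in DDK livers and 0.708 ± 0.120 in vehicle livers (-0.30, adjusted p = 0.0581), without overlap, and it passed as lower under 4 of the 12 alternatives in which it was tested. Of the 5 receptor chains tested, 1 rose and 2 fell, the 2 being Il6ra and Il6st, where 10.2% of all genes rose and 30.3% fell. Under the 4 other scalings 1 or 2 rose and 2 or 3 fell.

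Several ligands were scarce. For Il6 itself 0, 0 and 4 fragments were recovered in DDK livers and 1, 0 and 5 in vehicle livers. A count of 0 allows up to 3 fragments, an FPKM of 0.0914 and 0.0989 in DDK replicates 1 and 2 and 0.0769 in vehicle replicate 2, which covers counting error only, so a difference in Il6 was not detectable at this depth. Il11, Il27, Lif and Osm were also below the filter on low values. Of the 4 IL-6 family ligands tested, Clcf1, a ligand of the CNTF receptor, rose by 0.73 ± 0.19 (adjusted p = 0.015), and Ebi3, the beta subunit of IL-27, fell by 0.84 ± 0.18 (adjusted p = 0.00662). Ebi3 reached the filter in vehicle livers alone, so it entered the main test only through its values there. The Clcf1 call was lost with no filter and without DDK replicate 2 or vehicle replicate 2 (adjusted p up to 0.0565).

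Downstream of gp130, Stat3 (ENSMUSG00000004040.16, chromosome 11, 100885098 to 100939540, minus strand) stood at 13.0, 11.9 and 13.5 in DDK livers, against 17.5, 17.3 and 19.1 in vehicle livers. The groups did not overlap, and each was tight. Stat3 fell by 0.46 ± 0.12 (adjusted p = 0.0166), while 28.9% of all tested genes had a lower fold change. The call depended on the scaling, and was lost with median-ratio factors (log2 fold change -0.17, adjusted p = 0.31), with quantiles equalized (-0.23, 0.142) and with the length correction (-0.15, 0.322). With 1 liver fewer it was also lost, at similar fold changes, without DDK liver 1 (-0.47, 0.0565), DDK liver 2 (-0.41, 0.0777) or vehicle liver 3 (-0.42, 0.0692). The neighbouring gene Stat5a on the other strand shares 72 exon bases with Stat3.

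Of the 10 JAK and STAT genes tested, 6 fell and 0 rose, with a median log2 fold change of -0.46. Under the other scalings 0 or 1 rose and 3 to 9 fell. Over all genes 30.3% fell as deposited and 15.4% to 46.1% under the other scalings. Jak1, the main kinase of gp130 signalling, fell by 0.68 ± 0.16 (adjusted p = 0.0095), and Jak3, a kinase of lymphocyte cytokine receptors, fell by 0.82 ± 0.15 (adjusted p = 0.0034). Stat6 fell by 0.40 ± 0.14 (adjusted p = 0.0406), a call lost under 10 of the 16 alternatives. Jak1 and Jak3 passed under each of the 16 alternatives, whereas Stat3 passed under 10.

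Socs3 (ENSMUSG00000053113.3, chromosome 11, 117966079 to 117970047, minus strand) was the one member with a positive fold change. It stood at 4.79, 3.95 and 3.09 in DDK livers, against 4.17, 1.4996 and 1.92 in vehicle livers. The groups overlapped through vehicle replicate 1 alone, which lay above DDK replicates 2 and 3. The log2 fold change was 0.55 ± 0.26 (adjusted p = 0.113), and 92.6% of tested genes had a lower one. Without vehicle replicate 1 it was 0.86 (adjusted p = 0.005005), with library weights 0.84 (0.00345), and with the replicate number as a block the adjusted p was 0.0459, although the numbers were not shown to pair the mice. Socs3 passed under these 3 of the 16 alternatives only. The highest adjusted p was 0.342, without vehicle replicate 2, at a log2 fold change of 0.33.

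Socs3 against Stat3 in one library was read as a ratio in the same way. Socs3 stood at 0.369, 0.332 and 0.229 of Stat3 FPKM in DDK livers, against 0.238, 0.0869 and 0.1004 in vehicle livers. Vehicle replicate 1 again lay among the DDK livers. The mean log2 ratio was -1.72 ± 0.36 in DDK livers and -2.97 ± 0.79 in vehicle livers (SD, n = 3 each), a difference of 1.25 (exact two-sided permutation test p = 0.2, 0.333 adjusted over the 5 ratios).

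**Figure D2:**
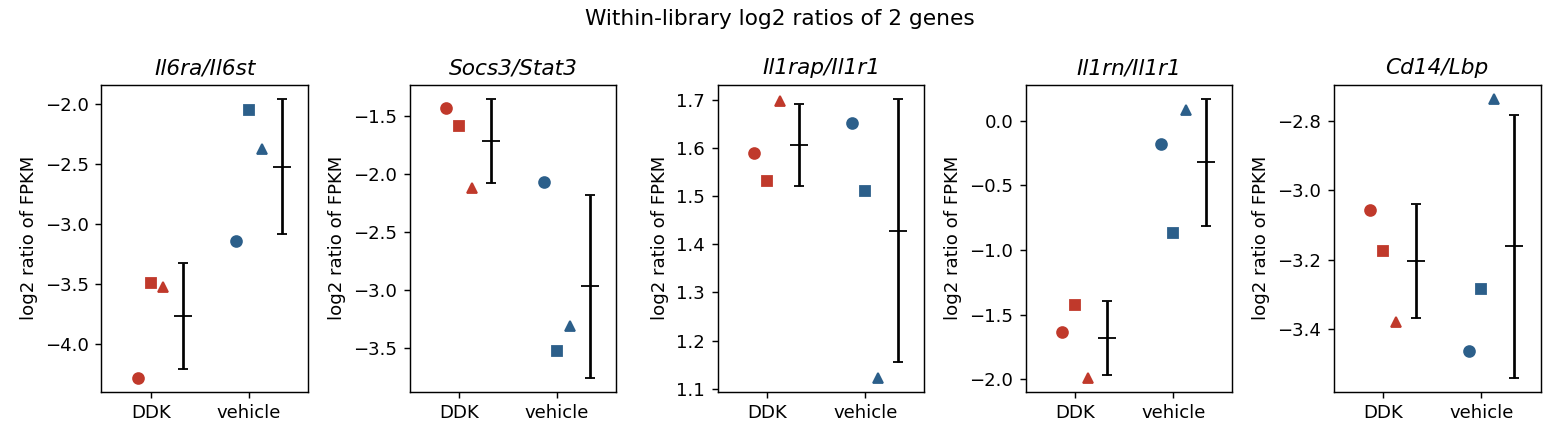
Log2 ratios of the FPKM of 2 genes within each library (y axis, own range per panel), DDK at left and vehicle at right, symbols as replicates 1, 2 and 3, with mean ± SD. The groups do not overlap for Il6ra/Il6st and Il1rn/Il1r1 and overlap for the other 3 ratios.

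Other brakes of the pathway were listed with Socs3. Of the 16 SOCS, PIAS and phosphatase genes tested 4 fell and 0 rose, where 30.3% of all genes fell and 10.2% rose. The median log2 fold change was -0.15, beside -0.23 over all genes. Under the other scalings 0 or 1 were higher and 2 to 6 lower, where 15.4% to 46.1% of all genes were lower. The listed genes that fell were phosphatases and Socs5. Ptpn1, which dephosphorylates JAK kinases, fell by 0.79 ± 0.14 (adjusted p = 0.00314). Ptpn11, or SHP2, fell by 0.89 ± 0.18 (adjusted p = 0.00551), and it also carries gp130 signals to the MAP kinase pathway. Ptpn6, mainly of blood cells, fell by 0.58 ± 0.16 (adjusted p = 0.0182), a call lost under 5 of the 16 alternatives. Socs5 fell by 0.32 ± 0.11 (adjusted p = 0.0473), a call lost under 7 of the 12 alternatives in which it was tested. Socs5 reached the FPKM filter in vehicle livers alone, so it entered the main test only through its values there.

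Targets of STAT3 outside the acute phase were called in both directions, no more often than genes at large. Of 18 tested, 1 rose and 4 fell, where 10.2% of all genes rose and 30.3% fell. The median log2 fold change was -0.13, beside -0.23 over all genes. Under the other scalings 1 or 2 rose and 2 to 6 fell, where 5.91% to 18.4% of all genes rose and 15.4% to 46.1% fell. Bcl3, an IkB-like cofactor, fell by 1.15 ± 0.15 (adjusted p = 0.000928), with an FPKM of 7.52 ± 1.06 in DDK livers and 17.9 ± 1.86 in vehicle livers (SD, n = 3 each). Timp1, a metalloproteinase inhibitor, fell by 1.65 ± 0.24 (adjusted p = 0.00162). Junb, an AP-1 subunit and immediate early gene, rose by 1.46 ± 0.30 (adjusted p = 0.00585), standing at 41.3, 103 and 84.8 in DDK livers against 31.5, 19.1 and 26.7 in vehicle livers. Hif1a fell by 0.91 ± 0.26 (adjusted p = 0.0218), a call lost under 7 alternatives. Of 22 acute phase genes 2 rose and 15 fell, and 1 or 2 rose and 8 to 20 fell under the other scalings. Those with the smallest p had log2 fold changes of -3.88 (Lcn2), -5.07 (Saa2), -2.35 (Orm2) and -4.98 (Saa1). The 2 that rose were Hamp (1.39, limma adjusted p = 0.00628) and Agt (0.55, 0.0273). The 5 not called were Orm1, Hp, Fgb, Fgg and C3, at -0.37 to -0.11. Saa1 and Saa2 are near-identical copies whose fragments may be divided between them.

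Steap4 (ENSMUSG00000012428.9, chromosome 5, 7960457 to 7982213, plus strand), a cell-surface and endosomal iron and copper reductase that inflammatory cytokines induce in mouse fat and liver, moved most among the 10. It stood at 7.24, 5.03 and 8.88 in DDK livers, against 32.2, 48.4 and 49.8 in vehicle livers. The lowest vehicle liver, replicate 1, lay well above the highest DDK liver. Steap4 fell by 2.47 ± 0.22 (adjusted p = 0.000249), 0.215% of tested genes had a lower fold change, and the vehicle mean was 6.16 times the DDK mean. It was called under each of the 16 alternatives, at -2.76 to -2.18. Of its relatives, Steap3, the endosomal ferrireductase of transferrin iron uptake, fell by 0.997 ± 0.243 (adjusted p = 0.0112), which was lost with no filter (0.0515). Steap2 had a log2 fold change of -0.21 (adjusted p = 0.19), and Steap1 was below the filter.

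Neither IL-1 receptor chain passed the test. Il1r1 (ENSMUSG00000026072.12, chromosome 1, 40225080 to 40317257, plus strand) stood at 3.20, 3.20 and 3.09 in DDK livers, against 3.37, 3.95 and 4.56 in vehicle livers. The ranges did not overlap, but vehicle replicate 1 lay close to the DDK livers. The log2 fold change was -0.25 ± 0.14 (adjusted p = 0.186), close to the all-gene median, and it turned to 0.040 with quantiles equalized and 0.070 with the length correction. Without vehicle replicate 1 it was -0.33 (adjusted p = 0.0476). Il1rap (ENSMUSG00000022514.14, chromosome 16, 26581704 to 26730117, plus strand) stood at 9.62, 9.25 and 10.02 in DDK livers, against 10.6, 11.3 and 9.93 in vehicle livers, and the groups overlapped. Its log2 fold change was -0.12 ± 0.13 (adjusted p = 0.443), it turned positive under 3 of the 4 other scalings, and it passed under none of the 16 alternatives. An antisense gene, Gm20319, shares 552 exon bases with Il1rap.

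The IL-1 receptor antagonist gene Il1rn (ENSMUSG00000026981.15, chromosome 2, 24336853 to 24351494, plus strand), made by myeloid cells and by hepatocytes in the acute phase, stood at 1.03, 1.19 and 0.778 in DDK livers, against 2.97, 2.16 and 4.83 in vehicle livers. The groups did not overlap, and vehicle replicate 3 was the highest. Il1rn fell by 1.07 ± 0.21 (adjusted p = 0.00488) and was called under each of the 16 alternatives, with adjusted p up to 0.0322. Il1rn stood at 0.322, 0.373 and 0.252 of Il1r1 FPKM in DDK livers, against 0.881, 0.547 and 1.06 in vehicle livers. The ratio was lower in each DDK liver than in any vehicle liver, with a mean log2 difference of -1.36 (exact two-sided permutation test p = 0.1, the smallest possible, and 0.25 adjusted over the 5 ratios). With a pseudocount of 1 added to both genes the difference was -0.82. The ratio of Il1rap to Il1r1 was 3.01, 2.89 and 3.25 in DDK livers, against 3.14, 2.85 and 2.18 in vehicle livers (exact two-sided permutation test p = 0.4).

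IL-1 ligands did not pass the test. Il1b stood at 2.74, 3.44 and 2.32 in DDK livers, against 2.43, 1.83 and 5.38 in vehicle livers, with overlapping groups (log2 fold change -0.057 ± 0.27, adjusted p = 0.881). Il1a stood at 2.90 ± 0.558 in DDK livers and 2.38 ± 1.03 in vehicle livers (SD, n = 3 each, log2 fold change 0.24, adjusted p = 0.387). Il18, a ligand of hepatocytes and Kupffer cells, stood at 7.30 ± 1.125 in DDK livers and 5.07 ± 1.19 in vehicle livers (0.46, adjusted p = 0.0617), and passed as higher under 6 of the 16 alternatives. Il33 had a log2 fold change of 0.026 (adjusted p = 0.898). Of the other antagonists and decoys, Il18bp, which neutralizes IL-18, fell by 0.95 ± 0.16 (adjusted p = 0.00291) under each of the 16 alternatives, while Sigirr had a log2 fold change of 0.15 (adjusted p = 0.505). The decoy receptor gene Il1r2 had 0 fragments in each DDK liver and 1, 0 and 2 in vehicle livers.

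Within the IL-1 receptor signalling list, 1 of 17 genes tested rose and 8 fell (median log2 fold change -0.35). Only 2 fell with median-ratio factors, quantiles equalized or the length correction, where 15.4%, 16.3% and 17.3% of all genes fell. As TPM 11 fell, where 46.1% of all genes fell. Over all genes 5.91% to 18.4% rose under these 4 scalings. Under the other scalings 1 was higher and 2 to 11 were lower. Over all genes 10.2% rose and 30.3% fell as deposited, and 15.4% to 46.1% fell under the other scalings. Irak1, the kinase recruited through MyD88, fell by 0.85 ± 0.18 (adjusted p = 0.00605) and Nfkb1, the p105 and p50 subunit, fell by 1.02 ± 0.17 (adjusted p = 0.0023). Tab1, an activator of the kinase TAK1, rose by 0.71 ± 0.14 (adjusted p = 0.00424). Irak2 fell by 0.53 ± 0.14 (adjusted p = 0.0133), a call lost under 5 of the 16 alternatives. Among 10 NF-kB feedback genes 4 fell and 0 rose (median -0.29, beside -0.23 over all genes). Under the other scalings 0 or 1 were higher and 1 to 5 lower. With quantiles equalized and with the length correction 1 fell, where 16.3% and 17.3% of all genes fell. Tnfaip3, or A20, an NF-kB brake, fell by 1.14 ± 0.18 (adjusted p = 0.00195), with an FPKM of 0.115 ± 0.0574 in DDK livers and 1.52 ± 0.678 in vehicle livers (SD, n = 3 each). Tnip1 (-0.65), Relb (-0.47) and Nfkbia (-0.44) also fell, but these calls were lost with quantiles equalized and with the length correction. Tnfaip3 and Relb reached the FPKM filter in vehicle livers alone, so they entered the main test only through their values there.

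Several list calls were lost when 1 liver was left out, which also leaves that group with 2 livers. Leaving out DDK liver 2 or vehicle liver 3 ended the calls of Irak2, Tnip1, Nfkbia, Ptpn6, Hif1a and Stat6. Leaving out DDK liver 1 ended those of Ptpn6, Nfkbia, Stat6, Relb and Socs5, and leaving out vehicle liver 2 those of Hif1a and Stat6. Socs5 was also lost without DDK liver 2 or 3, Stat6 and Relb without DDK liver 3, and Nfkbia without vehicle liver 1. Il18 passed as higher without DDK liver 3 or vehicle liver 1, and Ly96 without vehicle liver 1.

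**Figure D3:**
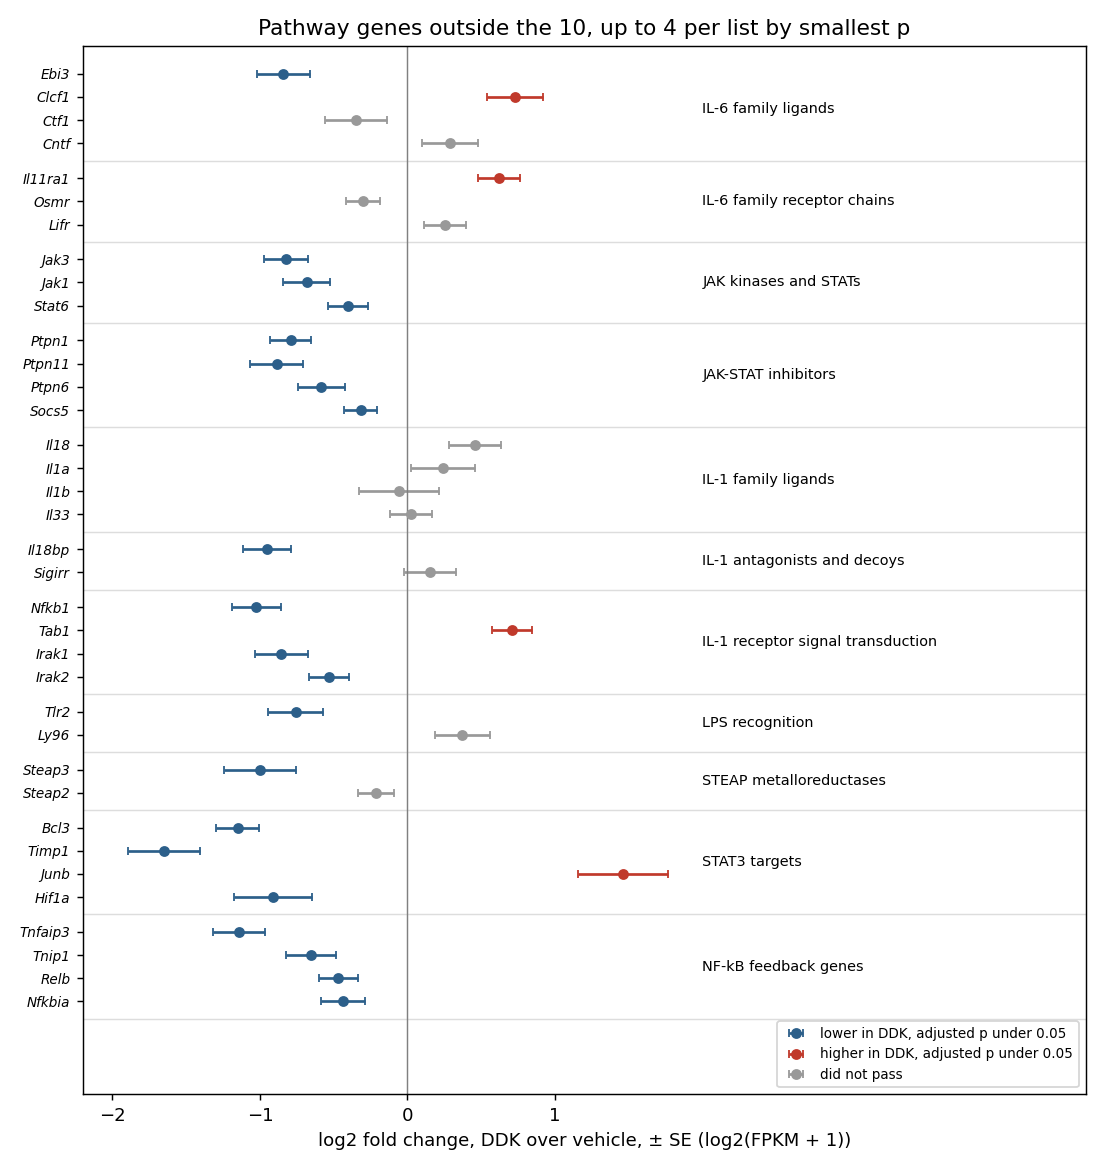
Log2 fold change ± SE (x axis, DDK over vehicle) of pathway genes outside the 10, up to 4 per list by smallest p with 1 gene left out, coloured by call. Most called genes lie left of 0, and Clcf1, Il11ra1, Tab1 and Junb lie right of it.

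Of the lipopolysaccharide-binding proteins, Lbp (ENSMUSG00000016024.9, chromosome 2, 158306493 to 158332852, plus strand), a plasma protein secreted by hepatocytes, stood at 25.9, 22.9 and 23.6 in DDK livers, against 42.8, 31.4 and 49.0 in vehicle livers. The groups did not overlap, and the DDK livers were the tighter group. Lbp fell by 0.72 ± 0.17 (adjusted p = 0.00877), a call lost under median-ratio factors alone among the 16 alternatives (-0.42, adjusted p = 0.0878). Cd14 (ENSMUSG00000051439.7, chromosome 18, 36725067 to 36726798, minus strand), a co-receptor of macrophages and hepatocytes, stood at 3.12, 2.54 and 2.27 in DDK livers, against 3.89, 3.22 and 7.36 in vehicle livers. The ranges did not overlap, with vehicle replicate 2 just above DDK replicate 1 and vehicle replicate 3 far above the rest. Its log2 fold change was -0.62 ± 0.24 (adjusted p = 0.0617), and it passed under TPM (0.0231), with library weights (0.037) and without vehicle replicate 2 (0.0312). Cd14 stood at 0.120, 0.111 and 0.0961 of Lbp FPKM in DDK livers, against 0.0907, 0.103 and 0.150 in vehicle livers (exact two-sided permutation test p = 0.9).

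Of the other listed genes, Tlr2, a receptor of bacterial lipopeptides, fell by 0.76 ± 0.19 (adjusted p = 0.0117), a call lost with the length correction (0.0678). Ly96 stood at 7.99 ± 1.13 in DDK livers and 6.01 ± 1.56 in vehicle livers (SD, n = 3 each, log2 fold change 0.37, adjusted p = 0.128), and passed as higher under 4 of the 16 alternatives. Tlr4 had 50 to 70 fragments in DDK livers and 115 to 181 in vehicle livers and was below the filter. 

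Ordered by level per length, the 10 genes changed places. In DDK livers Lbp stood first at a mean FPKM of 24.2, followed by Stat3 (12.8), Il1rap (9.63), Il6st (7.69), Steap4 (7.05), Socs3 (3.94), Il1r1 (3.16), Cd14 (2.64), Il1rn (1.0003) and Il6ra (0.562). There the ranges of Il1rap and Il6st, Il6st and Steap4, Socs3 and Il1r1, and Il1r1 and Cd14 overlapped. In vehicle livers Steap4 stood first at 43.5, with a range overlapping that of Lbp (41.1), followed by Stat3 (18.0), Il6st (15.6), Il1rap (10.6), Cd14 (4.82), Il1r1 (3.96), Il1rn (3.32), Il6ra (2.92) and Socs3 (2.53). From Cd14 down each neighbour overlapped the next, as did Stat3 and Il6st. Socs3 thus stood sixth in DDK livers and last in vehicle livers.

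**Figure D4:**
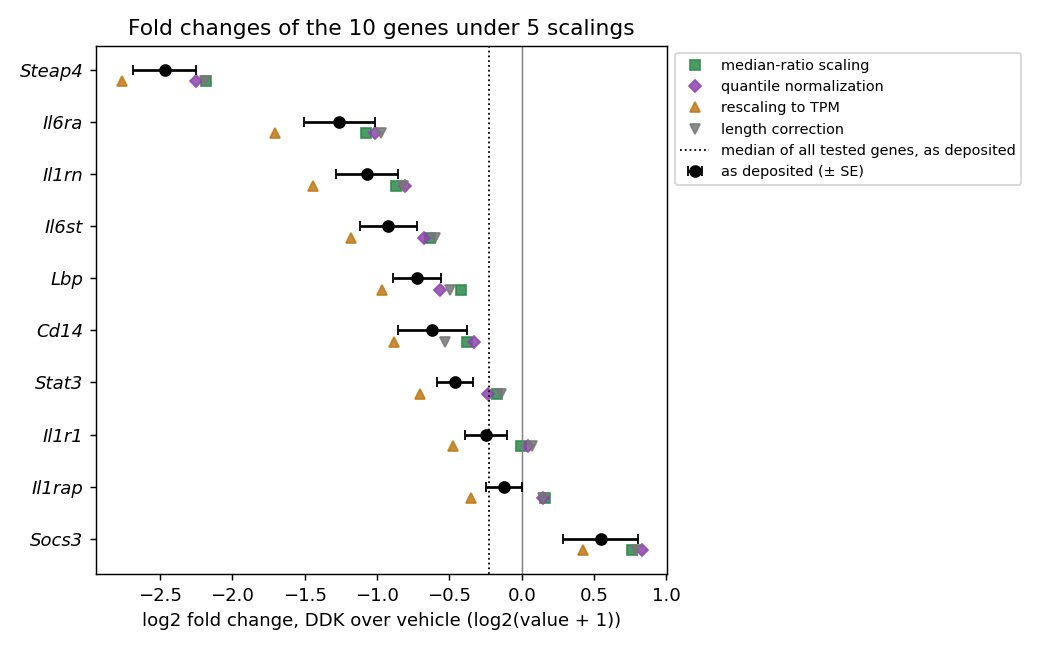
Log2 fold change of the 10 genes (x axis, DDK over vehicle), as deposited with ± SE and under 4 other scalings, with a dotted line at the all-gene median of -0.23. Steap4, Il6ra, Il1rn, Il6st, Lbp, Cd14 and Stat3 lie left of 0 and Socs3 right of 0 under all 5, and Il1rap and Il1r1 change sign.

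Marker lists of cell types differed from each other, where 30.3% of all genes fell and 10.2% rose. In the macrophage and Kupffer cell list 11 of 16 genes fell and 0 rose, with a summed FPKM of 197 to 495 in DDK livers and 670 to 1093 in vehicle livers. Trem2 fell by 2.35 and Lyz2 fell by 2.55, and among markers of resident Kupffer cells Cd5l fell by 1.33 (adjusted p = 0.00784). Of other such markers Vsig4 had a log2 fold change of -0.61 (adjusted p = 0.0992), Clec4f of -0.35 (0.363) and Timd4 of -0.010 (0.98). Of 5 neutrophil and monocyte markers tested 3 fell, with a sum over all 11 listed of 2.69 to 10.5 in DDK livers and 15.5 to 17.8 in vehicle livers. Some of the macrophage and monocyte markers that fell reached the FPKM filter in vehicle livers alone. Stellate cell and fibroblast markers fell in 7 of 10 (sum 74.2 to 100.1 in DDK livers, 154 to 196 in vehicle livers). Endothelial markers fell in 4 of 10 (sum 56.2 to 72.9 in DDK livers, 83.2 to 121 in vehicle livers), near the share of all genes. Of them 3 fell with median-ratio factors, with quantiles equalized and with the length correction, and 8 fell under TPM. Of 9 hepatocyte markers 4 rose and 0 fell, with a sum of 61315 to 64415 in DDK livers and 37833 to 48325 in vehicle livers, but 2 rose and 2 fell with quantiles equalized. Among 6 cholangiocyte markers 1 rose and 0 fell (sum 36.6 to 63.1 in DDK livers, 46.5 to 69.8 in vehicle livers), and none of 3 T, NK and B cell markers tested passed (sum over those listed 2.20 to 6.25 in DDK livers, 2.43 to 4.12 in vehicle livers). No marker in these lists was at 0 in all 6 libraries. The part of these cell types in the results for Il1rn, Cd14, Il6ra, Il6st, Stat3, Lbp, Steap4 and the pathway lists was not tested.

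The genes with the most similar course over the 6 libraries, by Pearson r of log2(FPKM + 1) among genes with a mean FPKM of at least 1, were Sh3pxd2a and Sec14l4 for Il6ra, Nrep and Cerk for Il6st, and Ctsb and Ap2m1 for Stat3. Shld1 and Urod stood nearest to Socs3, Mark2 and St6galnac6 to Il1r1, Copz1 and Rexo2 to Il1rap, and Sgsm2 and Tek to Il1rn. Ptpn6 and Ash2l stood nearest to Lbp, Tmem63b and Slc35a4 to Cd14, and Ywhaq and Zfp106 to Steap4. These r values ran from 0.988 to 0.999 over 6 points that share the group difference and the libraries, so they are descriptions only.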

How the data were processed

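Liver RNA of 6 mice was sequenced from 1.3 µg of total RNA per library with the NEBNext Ultra kit, per the labels' protocols. The authors deposited FPKM values per gene symbol, and the build was GRCm38 (mm10) per the submitters' processing notes. The sources used here name no aligner, counting program or annotation. Totals of 26576291 to 36105315 fragments were recovered from the FPKM steps, with 100.0% of the 16573 expressed genes whole within 0.01 of a fragment. The 10681 genes reaching FPKM 0.5 in 3 or more libraries were tested on log2(FPKM + 1) in R 4.3.3 by limma 3.58.1, with trended eBayes and Benjamini-Hochberg adjustment over all of them, and adjusted p under 0.05 was the threshold. The fit was tested on simulated data. The limma p-values set the difference between groups against the spread among the 3 livers within each group, moderated over all genes. Ratios used exact permutation tests.

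Groups came from the treatment labels. Alternatives were another pseudocount, 2 filters, median-ratio, quantile, TPM and gene length scaling, library weights, a replicate block, voom on recovered fragments and each library left out. The members, lists and named genes (the 10 members, up to 4 per list by smallest p, the 2 most alike per member) were chosen with earlier results of these data known. The Kupffer cell markers, the other low ligands and genes named beyond that rule were chosen after their values were seen. List symbols without a row are not analysed here, and 1 gene counted in a list is not reported here. Gene positions are from GENCODE M21 on GRCm38.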

Additional observations from a re-analysis of the deposited data

How the results depend on the processing

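Over 16 alternatives the 6 calls among the 10 genes became 4 to 8. Il6ra, Il6st, Il1rn and Steap4 were called in all 16, Lbp in 15, Stat3 in 10, Socs3 and Cd14 in 3, Il1r1 in 1 and Il1rap in 0. Direction held in all 16 for each of these except Il1r1, which turned to 0.040 with quantiles equalized and 0.070 with the length correction, and Il1rap, which turned to 0.16 with median-ratio factors, 0.15 with quantiles equalized and 0.15 with the length correction. Leaving out 1 library gave 2345 to 5478 calls over all genes (4327 with all 6), with 2780 and 2345 without DDK replicates 1 and 2 and 2774 and 2350 without vehicle replicates 2 and 3. It gave 5 to 8 calls among the 10 genes. Among pathway list genes, which include the 10, it gave 34 to 67 (56 with all 6), with 35 without DDK replicate 2 and 34 without vehicle replicate 3. The pathway lists held 6 higher and 50 lower as deposited, 11 and 28 with median-ratio factors and 12 and 38 with quantiles equalized. They held 11 and 30 with the length correction and 5 and 68 under TPM. Each pathway list had 2 to 22 genes tested. The acute phase list, with 22, gave 2 of the higher and 15 of the lower calls as deposited. The pooled list counts are not given as a share of the list genes tested. Over all genes tested, 10.2% were higher and 30.3% lower as deposited, and 18.4% and 15.4% with median-ratio factors. The all-gene shares were 17.7% and 16.3% with quantiles equalized, 16.1% and 17.3% with the length correction and 5.91% and 46.1% under TPM. With a pseudocount of 1 in the ratio, the log2 difference of Il6ra/Il6st was -0.34 and that of Il1rn/Il1r1 -0.82. Leaving out 1 library gave -1.55 to -0.98 for Il6ra/Il6st, -1.63 to -1.16 for Il1rn/Il1r1, 0.97 to 1.70 for Socs3/Stat3, 0.03 to 0.29 for Il1rap/Il1r1 and -0.19 to 0.17 for Cd14/Lbp. Deviations from the group means correlated at 0.14, -0.15 and 0.06 between same-numbered libraries, so pairing by number was not shown. These 3 values cannot exclude it, because differently numbered libraries were not compared. With the replicate block 4134 genes, 7 of the 10 and 56 pathway list genes were called, Socs3 being the added one.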
